A study of Mus musculus with 4 samples.

Results

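Oxidative phosphorylation genes were followed in the visual cortex of mice, as 73 genes read by 101 probe sets of an oligonucleotide array. The members were all probe sets whose only gene symbol in the platform's annotation names a nuclear gene of NADH dehydrogenase (Nduf), succinate dehydrogenase (Sdh), the cytochrome bc1 complex (Uqcr and Cyc1), cytochrome c (Cycs), cytochrome c oxidase (Cox4 to Cox8) or ATP synthase (Atp5). They stood among 8252 singly named genes and 12488 probe sets in all. Each gene was read from its brightest probe set over the 4 arrays. This gave 29 genes of complex I, 4 of complex II, 9 of complex III and cytochrome c together, 15 of complex IV, 14 of complex V and 2 assembly factors of complex I (Ndufaf1 and Ndufaf4).

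All tissue came from 5 wild-type C57Bl6 mice. Every mouse was raised in the dark until postnatal day 42, then had 1 eye removed, spent 4 days in an ordinary light-dark cycle and was killed at postnatal day 46. Deprived cortex is the side contralateral to the removed eye (2 arrays), and non-deprived cortex is the ipsilateral side (2 arrays). Tissue was pooled within a side, and how the mice were divided over the pools is not known here. The 2 groups thus share dark rearing, surgery and first light, and differ in whether the lost eye was the contralateral or the ipsilateral one. In mice most of the input to one side of visual cortex comes from the contralateral eye, and the ipsilateral eye still drives part of the deprived side.

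Oxidative phosphorylation makes most of the ATP of neurons in the inner mitochondrial membrane. Complexes I and II pass electrons from NADH and succinate to ubiquinone, complex III passes them on to cytochrome c, and complex IV passes them to oxygen. Complexes I, III and IV pump protons, and complex V, the ATP synthase, uses the returning protons to make ATP. In visual cortex, histochemical staining for cytochrome oxidase is a classical readout of activity that is known to weaken where an eye's input is lost. The subunits encoded in the mitochondrial genome, including the catalytic subunits of complex IV, were not analysed here, since 0 of their 13 genes had a probe set of their own name.

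The arrays gave a MAS5 signal in arbitrary units, with median signals between 189.9 and 245.65. As a measure of RNA quality, the 5′ over 3′ ratio of the actin probe sets stood at 0.504 ± 0.0568 on the deprived and 0.635 ± 0.0039 on the non-deprived arrays (SD, n = 2 per group), and the Gapdh ratio at 0.717 ± 0.0399 and 0.971 ± 0.136. Both ratios were lower on both deprived arrays, and their part in the values that follow was not tested. Of the neuron markers, 6 of 7 had a probe set of their own name, with summed signals of 28172 and 34010 in deprived and 32992 and 37675 in non-deprived cortex, and Snap25 alone was at 15282.7 or above on each array. The 5 muscle markers summed to between 697.7 and 990.3.

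For every respiratory complex, the array medians of its genes overlapped between deprived and non-deprived cortex. These medians are of log2 values, with each gene relative to its mean over the arrays. No complex was tested as a whole. Of the 73 genes, 66 were bright enough to test, with a mean signal of at least 142.9. In limma's fit across 7458 probe sets, 0 of the 76 tested member probe sets passed an adjusted p of 0.05 in either direction, against 0.107% of all probe sets that fell and 0% that rose. At an unadjusted p under 0.05 there was 1 member, Ndufc1, which was higher (1.74% of all tested genes were higher and 3.19% lower by that rule). The smallest adjusted p of a member was 0.48. The 95% interval of the fold change lay within 1.5-fold either way for 34 of the 66 genes and within 2-fold for 58. Fold changes are of log2(signal + 60.6), which understates changes of dim genes, and fewer cells of a type and less RNA per cell cannot be told apart in such tissue.

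**Figure D1:**
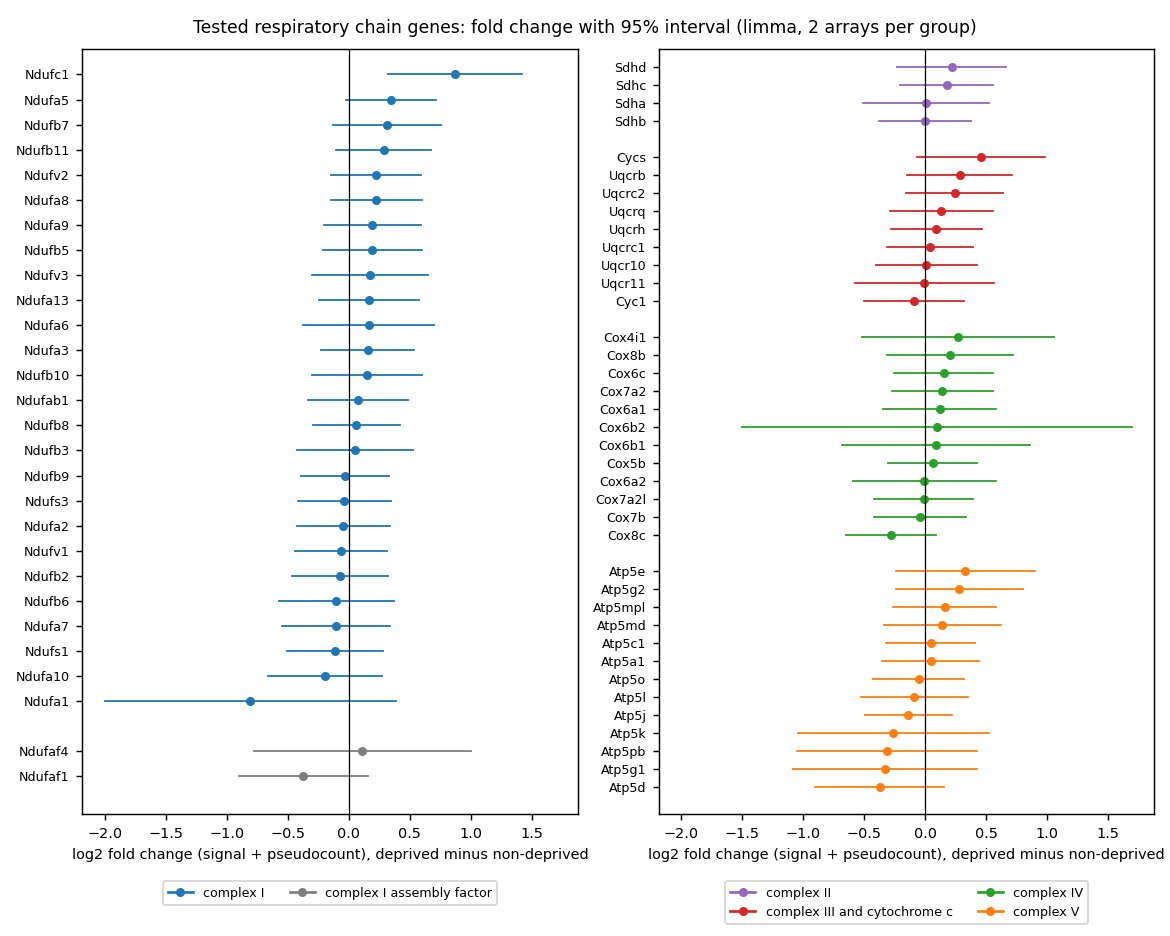
Log2 fold change of signal + 60.6 (horizontal axis, deprived minus non-deprived) of the 66 tested genes at their brightest probe set, coloured by complex; points are limma estimates and bars 95% intervals, from 2 arrays per group. The interval of Ndufc1, 0.32 to 1.42, lies above 0, and those of the other genes include 0.

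By complex, the median log2 fold change was 0.11 for complex I (26 tested genes), 0.087 for complex II (4), 0.089 for complex III with cytochrome c (9), 0.090 for complex IV (12) and -0.057 for complex V (13). Over all 5647 tested genes the median was 0.0057. Above 0 stood 16 of 26 genes of complex I, 3 of 4 of complex II, 7 of 9 of complex III, 8 of 12 of complex IV and 6 of 13 of complex V, against 50.8% of all tested genes. No test of these medians was made, because the genes were grouped with earlier results of these data known.

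The medians changed sign with the arrays that were set against each other. With deprived array 1, the median of complex I was 0.099 against non-deprived array 1 and -0.056 against non-deprived array 2. With deprived array 2 it was 0.26 and 0.021. Complex III with cytochrome c gave -0.0080 and -0.11 with deprived array 1, but 0.34 and 0.15 with deprived array 2. Each of the complexes I to III was thus at its highest when deprived array 2 was set against non-deprived array 1, and below 0 when deprived array 1 was set against non-deprived array 2. For complex II the 4 pairs gave 0.029, -0.093, 0.26 and 0.15 in the same order, for complex IV -0.044, 0.011, 0.11 and 0.13, and for complex V -0.11, -0.26, 0.12 and 0.063. Complexes IV and V had both of their lowest medians with deprived array 1 and both of their highest with deprived array 2. Over all tested genes the 4 medians lay between -0.030 and 0.016. Over the 1527 tested genes with a mean signal of 1000 or more they were -0.050, -0.091, 0.11 and 0.074 in the same order.

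**Figure D2:**
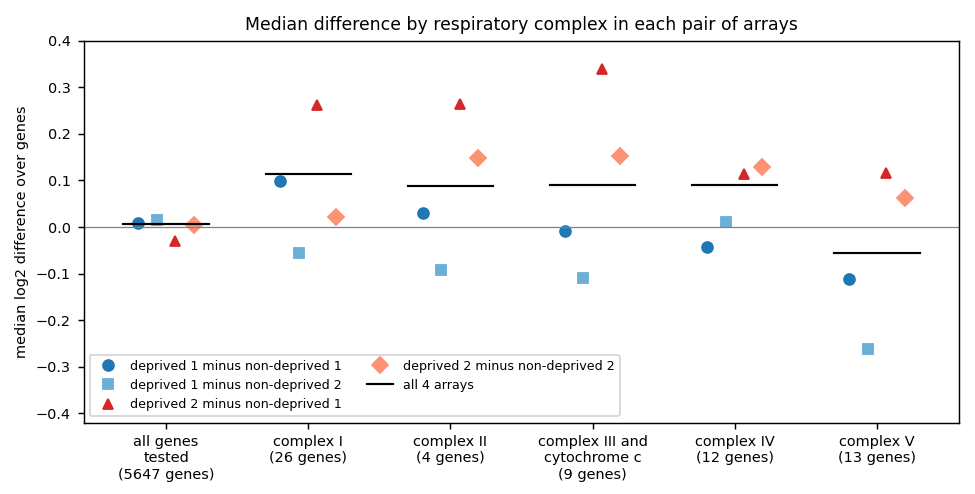
Median log2 difference over the genes of each complex (vertical axis) for every pairing of 1 deprived with 1 non-deprived array (4 pairings), with the median of the 4-array fit as a black line; all 5647 tested genes are at the left. The complexes spread over the pairs, from -0.26 to 0.34, while the medians of all genes stay near 0.

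Leaving out 1 array moved the medians over narrower ranges, but turned the sign of 4 of the 5. Without deprived array 2, complex III stood at -0.0063 and complex IV at -0.047. Without non-deprived array 1, complex I stood at -0.020. Complex V turned to 0.076 without deprived array 1, and to 0.043 when the filter on dim probe sets was raised to the 60th percentile. Complex II was above 0 in each of the 4 fits with an array left out, from 0.022 to 0.21. With quantile normalization or arrays scaled to a common median, the 5 medians kept their signs.

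Replicates of the same group often differed by more than the groups did. In 54 of the 66 tested genes (81.8%) the larger gap between 2 arrays of the same group exceeded the group difference, as in 80.0% of all tested genes. Deprived array 2 carried the highest signal of the 4 for 34 of the 66 genes (51.5%), against 25.6% of all tested genes. By complex this was 11 of 26 genes of complex I, 3 of 4 of complex II, 8 of 9 of complex III with cytochrome c, 6 of 12 of complex IV and 5 of 13 of complex V. In both groups at once, replicate 2 was above replicate 1 for 35 of the 66 genes (53.0%, against 28.7% of all tested genes), among them 9 of 13 genes of complex V and 0 of the 5 tested Ndufv and Ndufs subunits of complex I.

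Respiratory chain genes were bright, and bright genes in general were high on deprived array 2. Among all 1527 tested genes with a mean signal of 1000 or more, 45.5% had their highest signal on that array, and replicate 2 was above replicate 1 in both groups for 46.9%. Of the 49 members this bright, 57.1% and 61.2% did so. Haemoglobin, from red blood cells, was also highest there, with Hba-a1 at 7465.2 on deprived array 2, 4918.6 and 3659.9 on the non-deprived arrays and 2680 on deprived array 1. The part of blood in the values of the members was not tested.

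**Figure D3:**
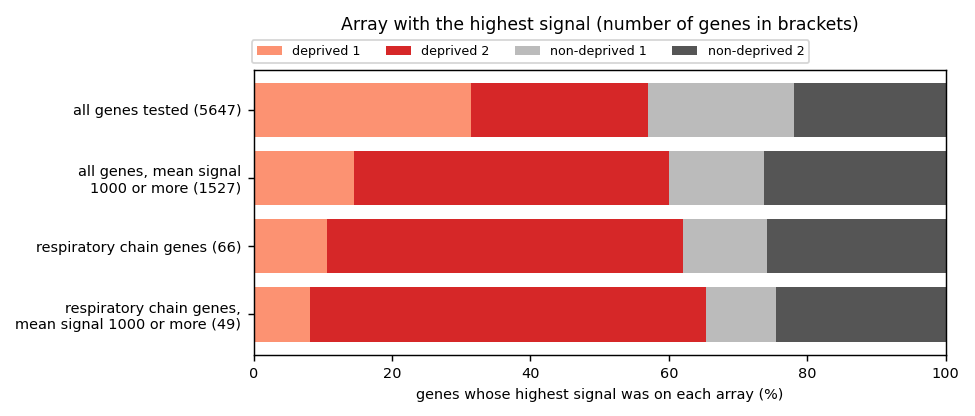
Share of genes (horizontal axis, %) whose highest signal of the 4 fell on each array, for all tested genes, for all genes with a mean signal of 1000 or more, and for the respiratory chain genes in the same way. Deprived array 2 held 25.6%, 45.5%, 51.5% and 57.1% of the genes in these 4 sets.

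Both deprived arrays stood above both non-deprived arrays for 10 of the 66 tested genes, and below both for 6. This is a share of 15.2% and 9.09%, against 15.4% and 16.4% of all tested genes, so the share on top was near that of all genes and the share below was smaller, with no test of either. The 10 became 19 after quantile normalization and 5 with arrays scaled to a common median, and the 6 became 10 and 3. The share of all tested genes was not computed under these settings, so the changed counts are not a result about the members. Of the 10, 7 belonged to complex I (Ndufc1, Ndufa5, Ndufa6, Ndufa8, Ndufb5, Ndufb11 and Ndufv2), 2 to complex III with cytochrome c (Cycs and Uqcrb) and 1 to complex IV (Cox6c). The 6 were Ndufa10 of complex I, the assembly factor Ndufaf1, Cox8c of complex IV, and Atp5g1, Atp5j and Atp5k of complex V. Complex V had 0 genes with both deprived arrays on top, and complex II had 0 in either direction.

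Ndufc1, a small accessory subunit of the membrane arm of complex I, had the largest difference of any tested member. Its signal was 1509.8 and 2618.5 on the deprived arrays and 900.1 and 1249.5 on the non-deprived arrays. The groups did not overlap, and deprived array 2 was far above the other 3 arrays. The means were 2064 ± 784 and 1075 ± 247 (SD, n = 2 per group). On the log2 scale the difference was 0.87 ± 0.25 (SE), and limma's adjusted p was 0.48. With the replicate number as a block, the adjusted p was 0.032, and Ndufc1 was then the 1 probe set in 7458 that rose (0.0134%), while 0.523% fell. That fit had 1 residual degree of freedom of its own, and 13.3 with the variance prior. Without deprived array 1 the log2 fold change was 1.26, and without deprived array 2 it was 0.49.

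Ndufa5, an accessory subunit of the arm of complex I that reaches into the matrix, and Cycs, the mobile electron carrier between complexes III and IV, came next by unadjusted p. Ndufa5 had 3723.4 and 3925.2 in deprived and 2744.2 and 3244 in non-deprived cortex, a log2 fold change of 0.35 ± 0.17 (SE, n = 2 per group, limma adjusted p = 0.92). Cycs had 621.5 and 627.4 in deprived and 435.6 and 442.8 in non-deprived cortex. The replicates of Cycs nearly coincided in both groups, and its difference was much the same in every pair of arrays, from 0.44 to 0.47 on the log2 scale. Its log2 fold change of 0.45 ± 0.24 (SE) did not pass in limma (adjusted p = 0.96), whose variance for a gene draws also on other genes of like brightness.

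The sequence before the start of these 3 genes is shown because they led the members by unadjusted p. Promoter windows of RefSeq (GRCm38.p6), running from 250 bases before to 50 bases after the annotated start, were matched for 59 of the 73 genes. Only the 250 bases before the start are printed, for Ndufa5 those before the outermost of its starts, 5′ to 3′ on the gene's strand, with matches to searched motifs in capitals. Cycs lies at chr6:50566570-50566819, minus strand, Ndufc1 at chr3:51408956-51409205, minus strand, and Ndufa5 at chr6:24527691-24527940, minus strand.
Cycs: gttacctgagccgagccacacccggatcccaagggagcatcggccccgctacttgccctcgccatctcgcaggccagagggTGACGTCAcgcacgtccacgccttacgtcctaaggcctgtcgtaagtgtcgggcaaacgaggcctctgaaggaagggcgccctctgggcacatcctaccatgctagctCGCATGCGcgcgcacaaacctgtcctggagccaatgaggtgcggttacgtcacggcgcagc
Ndufc1: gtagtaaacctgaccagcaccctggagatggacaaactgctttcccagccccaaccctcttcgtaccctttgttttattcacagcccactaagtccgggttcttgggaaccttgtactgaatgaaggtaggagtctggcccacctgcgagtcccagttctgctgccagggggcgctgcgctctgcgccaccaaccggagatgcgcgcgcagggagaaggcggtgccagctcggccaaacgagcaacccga
Ndufa5: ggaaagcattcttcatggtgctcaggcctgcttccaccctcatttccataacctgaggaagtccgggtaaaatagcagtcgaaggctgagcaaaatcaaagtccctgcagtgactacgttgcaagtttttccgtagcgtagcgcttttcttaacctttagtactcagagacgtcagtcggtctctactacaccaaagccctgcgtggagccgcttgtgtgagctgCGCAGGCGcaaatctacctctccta

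The motifs searched on both strands of the whole windows were those of factors known to act on nuclear respiratory genes. They were a core of nuclear respiratory factor NRF1 (CGCNTGCG), the ETS and GABP motif CCGGAAGT, the YY1 motif AAGATGGCG and the oestrogen-related receptor motif TCAAGGTCA, with the cAMP response element TGACGTCA added as the motif of the activity-regulated factor CREB. No motif contains another. The NRF1 core was in the window of 22 of the 59 members (37.3%), against 9.22% of 27025 genes with a window. The YY1 motif was in 5 members (8.47%, against 1.64%), the ETS motif in 4 (6.78%, against 4.31%), the cAMP response element in 3 (5.08%, against 2.03%) and the receptor motif in 1 (1.69%, against 0.466%). Cycs had both a cAMP response element, 169 bases before the start, and an NRF1 core, 61 bases before it. Ndufa5 had an NRF1 core 25 bases before the printed start, read on the opposite strand, and in Ndufc1 the YY1 motif lay 22 bases after the start, outside the printed stretch. A match describes these letters and not a site in use.

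The 5 tested Ndufv and Ndufs genes, which include the electron-entry subunits of complex I, lay between -0.11 and 0.23 on the log2 scale. Ndufv1, which binds NADH through its flavin, had 6167.3 and 6739.1 in deprived and 6741.6 and 6725 in non-deprived cortex, and its log2 fold change was -0.062 ± 0.17 (SE). Ndufs1, the large iron-sulphur subunit, had 1273.3 and 1507.6 against 1536.7 and 1465.7, at -0.11 ± 0.18. For both genes deprived array 1 was the lowest of the 4, and the groups overlapped. Ndufs3, a core subunit near the ubiquinone site, was at -0.034 ± 0.17, and the flavoprotein-side iron-sulphur subunit Ndufv2 at 0.23 ± 0.17 with no overlap between the groups. Limma's adjusted p of these 4 was 0.999. The core subunits Ndufs7 and Ndufs8 were not analysed here.

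Most genes of complex I encode accessory subunits. The 11 tested Ndufa genes, Ndufab1 included, had a median of 0.16, the 9 Ndufb genes 0.065, and the 5 Ndufv and Ndufs genes -0.034. Ndufa8, an accessory subunit on the side of the intermembrane space, had 1636.2 and 1713.2 in deprived and 1390.6 and 1453.9 in non-deprived cortex, with no overlap, at 0.23 ± 0.17. Ndufb11, of the membrane arm, had 1568 and 1428.8 against 1285.6 and 1150.6, at 0.29 ± 0.18. Both were higher on each deprived array, and neither passed in limma (adjusted p = 0.999 and 0.991). Ndufb3 and Ndufb6, also of the membrane arm, differed mostly between the non-deprived arrays, with 989.1 and 1542.6 for Ndufb3 and 3031.9 and 4724.1 for Ndufb6. Ndufa1 was the lowest tested member at -0.81 ± 0.55, which came from deprived array 2 alone: its signals were 254.5 and 50.7 in deprived and 243.7 and 291.4 in non-deprived cortex. Without deprived array 2 it stood at -0.055. The assembly factor Ndufaf1 was at -0.37 ± 0.24, with 504.2 and 420.5 against 596.4 and 629.8, and Ndufaf4 at 0.11 ± 0.41.

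Complex II, which is also the succinate dehydrogenase of the citric acid cycle, was the only complex whose subunits all had a tested probe set. Its flavoprotein Sdha had 571.5 and 556 in deprived and 618 and 512.7 in non-deprived cortex, a log2 fold change of 0.0013 ± 0.24 (SE). The iron-sulphur subunit Sdhb stood at -0.0038 ± 0.17, and the membrane anchors Sdhc and Sdhd at 0.17 ± 0.17 and 0.21 ± 0.20. The 2 catalytic subunits were thus close to 0 and the 2 anchors higher, but both anchors overlapped between the groups. Sdhd had 2132.6 and 2792.9 in deprived and 1774.4 and 2473.5 in non-deprived cortex, with replicate 2 above replicate 1 in each group.

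In complex III the core subunits Uqcrc1 and Uqcrc2 gave 0.037 ± 0.16 and 0.24 ± 0.18 (SE). Uqcrc1 was among the steadiest members, with 3813.3 and 3998.8 in deprived and 3835 and 3775 in non-deprived cortex. Uqcrb, which takes part in ubiquinone binding, had 1227.8 and 1675.1 against 1147 and 1192.4, higher on both deprived arrays but with most of the difference on deprived array 2. Cyc1, the cytochrome c1 subunit that hands electrons to cytochrome c, had 6457 and 7930.9 against 7510 and 7776.2, at -0.094 ± 0.19. Its other, dimmer probe set had 3000.8 and 4714.8 against 4802.7 and 5484.6, at -0.44 ± 0.21 on the log2 scale (limma adjusted p = 0.93). Without deprived array 2 this dimmer probe set gave -0.76, whereas the brighter gave -0.24. Uqcr11 and Uqcr10, small accessory subunits, were at -0.0094 and 0.0073, and Uqcrq and Uqcrh at 0.13 and 0.089. The Rieske protein gene Uqcrfs1 had no probe set of its own name.

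**Figure D4:**
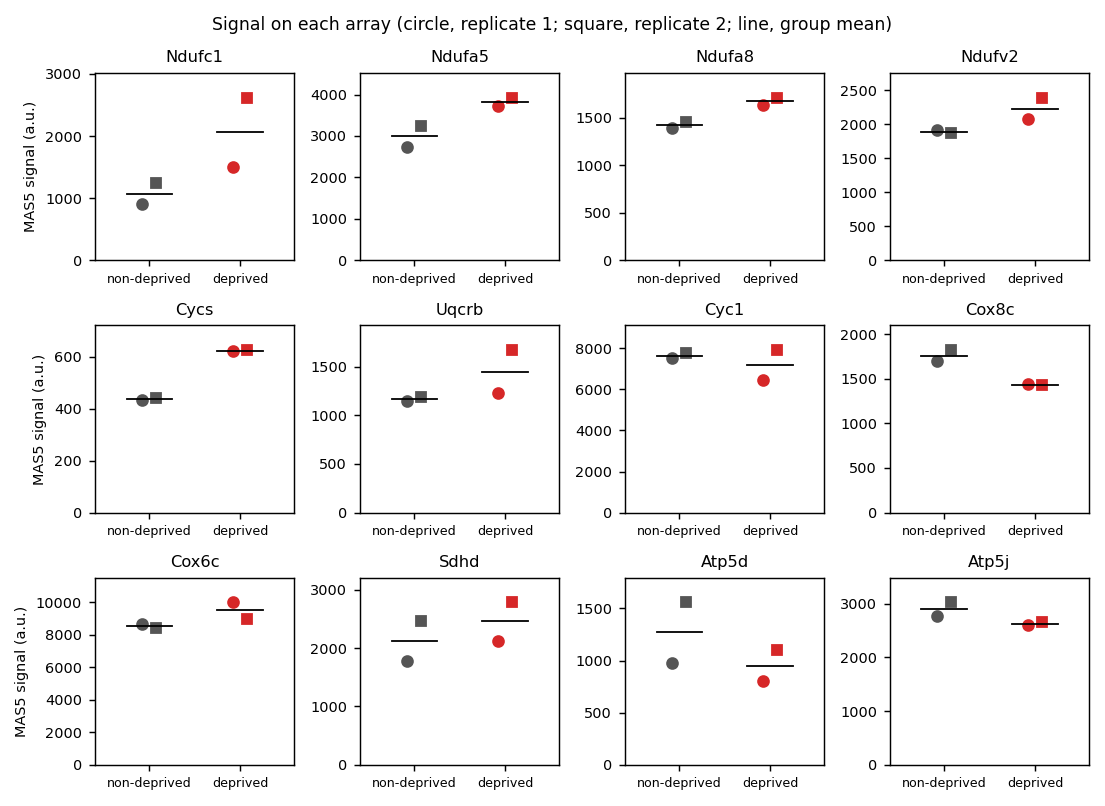
MAS5 signal in arbitrary units (vertical axes start at 0) of 12 members on each array; circles are replicate 1, squares replicate 2, and lines group means. The arrays of Cycs nearly coincide within each group, while for Sdhd and Atp5d replicate 2 is above replicate 1 in both groups.

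Complex IV was read mainly through its nuclear structural and isoform subunits. Cox5b, a zinc-binding subunit, had 3179.9 and 3743.1 in deprived and 3297.5 and 3324.7 in non-deprived cortex, at 0.058 ± 0.17 (SE). Cox6c had 10020.6 and 8995.6 against 8668.4 and 8440.6, at 0.15 ± 0.19, with both deprived arrays on top. Cox6a1 and Cox7a2, the isoforms found in most tissues, were at 0.12 ± 0.21 and 0.14 ± 0.19. The assembly-related Cox7a2l, which has been linked to supercomplexes of complexes III and IV, was at -0.015 ± 0.19, and Cox7b at -0.043 ± 0.17. The intervals of these 6 genes all included 0, and each lay within 1.5-fold either way. Cox4i1, the largest nuclear subunit, was dim on these arrays, with 268.7 and 531.4 in deprived and 373.1 and 249.9 in non-deprived cortex, and its log2 fold change of 0.27 ± 0.36 had an interval from -0.52 to 1.06. The other tested probe set of Cox4i1, somewhat dimmer, was at -0.079 ± 0.35.

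Isoforms of complex IV known from muscle and testis gave mixed readings. Cox8c, a testis isoform, was the lowest of the complex at -0.28 ± 0.17 (SE, limma adjusted p = 0.98), with 1436.8 and 1430.6 in deprived and 1695.1 and 1823 in non-deprived cortex and no overlap. The heart and muscle isoforms Cox6a2 and Cox8b were at -0.0090 ± 0.27 and 0.20 ± 0.24. Their muscle counterpart Cox7a1 was too dim to test, at 251.5 on deprived array 1 and 57.6 or less on the other arrays. Cox6b2, another testis isoform, had 367.4 and 44.9 in deprived and 254.3 and 64.9 in non-deprived cortex, so that replicate 1 was above replicate 2 in both groups, and Cox6b1 was at 0.083 ± 0.35. The common isoform Cox8a had signals of 66.1, 34.1, 27.2 and 67.5, and Cox5a was also too dim to test. Signals of different probe sets have no common scale, so these readings do not rank the isoforms.

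Complex V was read through its catalytic ring, rotor and stalks. Atp5a1, the alpha subunit of the catalytic ring, had 7502.9 and 8640.3 in deprived and 7689.2 and 7939.3 in non-deprived cortex, at 0.043 ± 0.18 (SE). Atp5c1, the gamma subunit of the rotor, was at 0.045 ± 0.17 at its brighter probe set and at -0.17 ± 0.17 at the dimmer one, where both deprived arrays lay below both non-deprived arrays. Atp5o, which joins the ring to the peripheral stalk, was at -0.057 ± 0.17. The beta subunit Atp5b had no probe set of its own name. The ends of the range of complex V were the 2 other subunits of the central stalk, Atp5d (delta) at -0.38 ± 0.24 and Atp5e (epsilon) at 0.33 ± 0.26. Atp5d had 802 and 1100.4 against 978.7 and 1561.2, and Atp5e 1101.5 and 1487.4 against 749.8 and 1349.5, each with replicate 2 above replicate 1 in both groups.

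Of the peripheral stalk, Atp5j had 2596.2 and 2650.9 in deprived and 2776 and 3029.7 in non-deprived cortex, at -0.14 ± 0.16, and Atp5pb was at -0.32 ± 0.34. The membrane ring was read through Atp5g1, at 215.7 and 269.1 against 316.9 and 323, and Atp5g2, at 730 and 901.8 against 789.4 and 547.2. Both genes encode the same mature ring protein, and at these probe sets their log2 fold changes were -0.33 ± 0.35 and 0.28 ± 0.24. The dimmer probe set of Atp5g1 was at 0.057 ± 0.49. Atp5k and Atp5l, subunits that hold 2 synthases together as a dimer, were at -0.26 ± 0.36 and -0.092 ± 0.20, and the small accessory subunits Atp5md and Atp5mpl at 0.14 ± 0.22 and 0.16 ± 0.19. The smallest unadjusted p of complex V in limma was 0.149, that of Atp5d.

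Probe sets of the same gene often differed in sign. More than 1 probe set was tested for 8 genes, and in 2 of them, Cyc1 and Ndufa3, all tested probe sets had the same sign. Atp5d gave -0.38 at its brightest probe set and 0.14, 0.10 and 0.15 at the other tested ones. Ndufv2 gave 0.23 at its brighter probe set with both deprived arrays on top, and -0.15 at its dimmer one with both deprived arrays below. For Ndufc1, Ndufa5 and Cycs no second probe set was named for the gene alone. Of the 66 brightest tested probe sets, 18 carried a suffix that marks probes which can match related transcripts or were picked by relaxed rules.

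**Figure D5:**
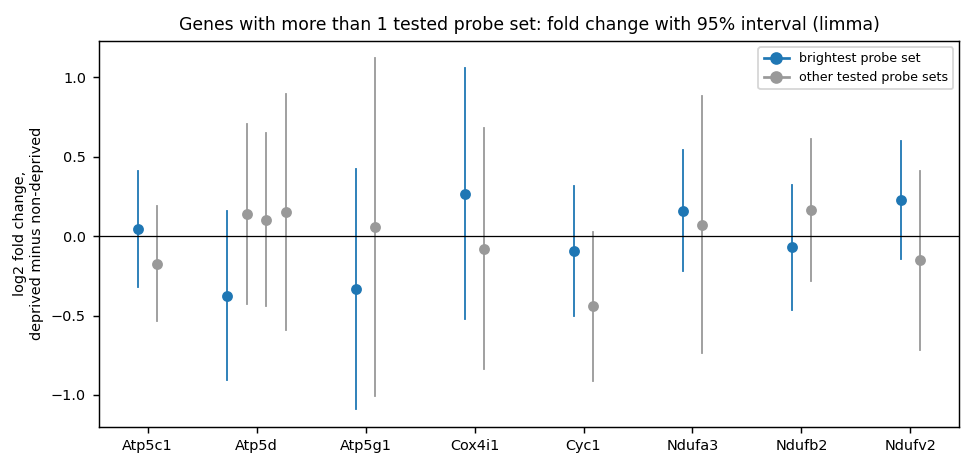
Log2 fold change (vertical axis, deprived minus non-deprived) with 95% limma intervals for the 8 genes with more than 1 tested probe set, the brightest in blue and the others in grey. Every interval includes 0, and in 6 of the 8 genes the probe sets lie on both sides of 0.

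Probe sets too dim to test held the other 7 members. These were Ndufa12, Ndufc2 and Ndufs4 of complex I, Cox5a, Cox7a1 and Cox8a of complex IV and Atp5j2 of complex V. Ndufa12 had 53.4 and 49.6 in deprived and 176.5 and 101.7 in non-deprived cortex, a mean of 95.3. Ndufs4 had 157 and 147.7 against 79.5 and 174.3, just under the mean signal of 142.9 required. A level this low on the array is not evidence that the transcript was low in the tissue.

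Genes that build, feed and serve the respiratory chain were read in the same fit, and 0 of them passed limma's adjusted threshold. For the 16 tested assembly factors the median log2 fold change was 0.063, with 1 gene higher and 1 lower at an unadjusted p under 0.05. By the same rule 1.74% of all tested genes were higher and 3.19% lower. The copper chaperone of complex IV, Cox17, had 2361.3 and 2314.5 in deprived and 1766.8 and 1691.9 in non-deprived cortex, at 0.42 ± 0.16 (SE, adjusted p = 0.80). Surf1, another assembly factor of complex IV, had 633.3 and 718.4 against 963.7 and 952.9, at -0.47 ± 0.20 (adjusted p = 0.89). Neither gene overlapped between the groups, and they lay on opposite sides of 0.

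Of the 15 tested genes of the citric acid cycle and pyruvate dehydrogenase, 13 stood above 0, with a median of 0.089 and 0 at an unadjusted p under 0.05. Against non-deprived arrays 1 and 2, their median was 0.055 and -0.041 with deprived array 1, and 0.18 and 0.16 with deprived array 2. Idh2, the mitochondrial NADP-dependent isocitrate dehydrogenase, had 566.7 and 580.7 in deprived and 384.7 and 370.9 in non-deprived cortex, at 0.53 ± 0.25 (SE, limma adjusted p = 0.92). The 22 tested genes of mitochondrial import and chaperones had a median of 0.10, with 15 above 0 and 2 at an unadjusted p under 0.05. These 2 were Timm13 at 0.43 ± 0.17 and Timm10 at 1.07 ± 0.47, small chaperones of the intermembrane space (adjusted p = 0.80 and 0.89). At that unadjusted p, 1.74% of all tested genes were higher and 3.19% lower. For carriers and porins the median was 0.13 over 15 genes, and for the 53 genes with symbols of mitochondrial ribosomal proteins 0.062. For antioxidant enzymes it was -0.083 over 9 genes and for the 8 biogenesis regulators 0.072. Of the genes with ribosomal protein symbols, 7 were higher and 4 lower with no overlap, out of 53, where 15.4% and 16.4% of all tested genes were. That list was drawn up by symbol, which does not show that each gene encodes a part of the ribosome. In it Mrps36 stood at 0.56 ± 0.23 (adjusted p = 0.87), the 1 gene of the list at an unadjusted p under 0.05. The lists of carriers, antioxidant enzymes and regulators had 0 such genes. Among the regulators, Tfb2m, a factor of mitochondrial transcription, was at 0.97 ± 0.51 (adjusted p = 0.96).

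Of the cell type markers in the tissue, 0 passed limma's adjusted threshold, and 3 did at an unadjusted p under 0.05. Of all tested genes, 1.74% were higher and 3.19% lower by that unadjusted rule. Neuron markers had a median of -0.31 over 6 tested genes, with Nefl at -0.68 ± 0.21 (SE, limma adjusted p = 0.51). Both deprived arrays were below both non-deprived arrays in 3 of the 6, against 16.4% of all tested genes. Oligodendrocyte markers had a median of 0.27 over 4 genes, and summed to 12401 and 11174 in deprived and 10394 and 9157 in non-deprived cortex. The groups did not overlap in these sums, while those of neurons (given above), astrocytes (9872 and 11883 against 11562 and 11169) and endothelium (1259 and 900.3 against 912.5 and 945.6) did. The sums of microglia markers were 4834 and 4999 against 4762 and 4733, again without overlap. No listed marker was at 0 on all arrays, and the part of cell composition in the values of the members was not tested.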

How the data were processed

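Per the labels' protocols, Trizol was used to extract the RNA, and some 10 µg of it went into each biotinylated cRNA target. The deposited values are intensities, 1 signal per probe set on a linear scale, which the authors computed with MAS5 (so named in the submitters' processing notes). The MAS5 version, scaling target and detection calls are not given in the sources used here. Precision is limited by the small number of arrays.

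Arrays were scaled to a common 2% trimmed mean (already between 500.3 and 500.4), 60.6 (the 20th percentile of mean signals) was added and log2 was taken. The 66 control probe sets and those below the 40th percentile (142.9) were left out, which kept 7458. limma 3.58.1 in R 4.3.3 (lmFit, eBayes with a mean-variance trend) compared the groups with Benjamini-Hochberg adjustment over all 7458. The fit had 2 residual degrees of freedom, 11.6 with the prior. An exact permutation test of 2 against 2 arrays cannot give a two-sided p under 0.333.

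Genes were named from the platform's annotation table, and all 73 members matched the RefSeq table (GRCm38.p6) by Entrez identifier under the same symbol. Members and lists were chosen with earlier results of these data known. Named were core subunits and complex IV isoforms whatever their values, each complex's largest and smallest change, members at an unadjusted p under 0.05 or separated by 1.5-fold, genes with several probe sets, and up to 3 genes per related list; other members were named after their values were seen. The design text's mention of further cross-animal comparisons was read as meaning that same-numbered arrays share animals, which it does not state. Deviations of same-numbered arrays correlated with r = 0.27 over all tested probe sets, and the replicate number was run as a block as an alternative. Nothing says that replicate pools hold separate mice, so p-values measure the spread between these arrays, which may be technical.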

Additional observations from a re-analysis of the deposited data

How the results depend on the processing

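With 2 arrays per group, the counts depended on the processing more than the medians by complex did. The count of 8 probe sets past the adjusted threshold over all tested became 1 when arrays were quantile normalized, 3 when they were put on a common median, 40 with the replicate block and 0 without a mean-variance trend, which left 390 at an unadjusted p under 0.05. The block also took the members past the threshold from 0 to 1 (Ndufc1). The 10 members with both deprived arrays on top and the 6 with both below became 19 and 10 after quantile normalization, 5 and 3 with a common median, and 20 and 11 when only the same-numbered pairs had to agree in direction, a looser rule that 27.3% and 25.8% of all tested genes met. With 1 array left out, the count over all probe sets ran from 5 to 90, that of members from 0 to 1, members on top from 15 to 36 and below from 11 to 24. The array left alone in its group is taken to have the spread of the other group. With 1 array against 2, the rule for members on top or below is also looser than with all arrays. The share of all tested genes that met this looser rule is not given here, so those 2 ranges are not a result about the members. The medians then ran from -0.020 to 0.21 for complex I, 0.022 to 0.21 for complex II, -0.0063 to 0.34 for complex III with cytochrome c, -0.047 to 0.089 for complex IV and -0.16 to 0.076 for complex V. Beyond the stated constructions, the cause was not tested. Over the named members and alternatives, 296 values kept their sign and side of the threshold, and 30 turned sign without passing in either fit. The other 2, both of Ndufc1, kept their sign and were newly past the threshold, among them that with the replicate block. The replicate block, the fit without a mean-variance trend and the changed filters leave a gene's log2 fold change as it is. Signs were thus fixed in advance there, and those values are counted among the 296, except that of Ndufc1 with the replicate block.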

Other observations

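Some respiratory chain probe sets carry several symbols, usually a gene and a pseudogene or close copy, and belong to no comparison above. There were 10 of them, 9 were bright enough to test, and all 9 gave a log2 fold change above 0, from 0.0028 to 0.41. None of the 9 had an unadjusted p under 0.05 in limma, and the groups overlapped at each. Over all tested genes 50.8% stood above 0. The 2 probe sets shared by Cox7c and Gm12338 gave 0.088 and 0.0028, those shared by Ndufs6 and Ndufs6b 0.25 and 0.060, and the 1 shared by Ndufs5 and its pseudogene 0.20. That of Cox7c with the higher signal had 19133.7 and 25506.4 in deprived and 18899.9 and 22838.3 in non-deprived cortex, with replicate 2 above replicate 1 in both groups.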
